A study of Mus musculus with 4 samples.

Results

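The 10 genes described here, Podxl, Pdpn, Dpp4, Ezr, Actn4, Synpo, Myh9, Myo1e, Inf2 and Pdlim1, encode proteins of the podocyte surface and of the actin skeleton beneath it. They were taken by symbol from the 52636 genes counted, and each symbol matched 1 gene. Glomeruli, the filtering units of the kidney, had been pulled from bead-perfused mouse kidneys with a magnet and digested to single cells for droplet-based 3' sequencing. The young group (n = 2 libraries) and the aged group (n = 2 libraries) were both untreated, and the labels name no genotype, strain, sex, age in months or number of mice for either. Nothing in the labels says that libraries of a group came from separate animals, so p-values measure only the spread between these libraries, which may be technical.

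Podocytes wrap the glomerular capillaries with interlocking foot processes. The outer face of the foot processes carries a negatively charged coat of sialomucins, which is tied through ezrin to a cortex of actin filaments, and bundles of actin with alpha-actinin, synaptopodin and non-muscle myosin run along the processes. Inherited defects of ACTN4, INF2, MYO1E and MYH9 cause glomerular disease with protein loss into the urine.

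The deposited matrices held 33323 barcodes with 124600182 unique molecular identifiers (UMIs), from 18457791 to 42046542 UMIs in a library. After filtering, 28000 cells formed 22 clusters, of which 17 were named from marker genes that include no member. A named cluster is podocyte-like, endothelial-like and so on by its markers, and is called by the cell type below. The libraries held 557 to 1745 podocytes, 1335 to 5764 endothelial cells, 200 to 633 mesangial cells and 28 to 40 parietal epithelial cells. Young replicate 2 stood apart: its median was 1258 UMIs a cell, against 2715 to 3730 in the others, and 56.5% of its cells were in clusters that mixed markers of several types, against 0.795% to 1.62%. Those cells were left out of every class. All 10 podocyte markers were detected in the podocytes of each library. Between 9 and 31 cell barcodes were shared by any pair of libraries, at most 0.346% of the smaller one.

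The level of each gene in each class was expressed as UMIs per 1000000 UMIs of that class in that library (CPM). These levels are a description without a test, since classes are made from the same cells, and 3' counting gives no scale on which different genes could be ranked. Of the 10 genes, 5 had their highest mean level in podocytes among the 10 classes described (Podxl, Synpo, Dpp4, Pdpn and Inf2), 3 had their second highest (Actn4, Ezr and Myo1e), and 2 were lower in the order (Myh9 and Pdlim1). By level the name podocyte gene held for Podxl, Synpo, Dpp4 and Pdpn. Inf2 was too scarce to rank firmly, and Pdlim1 was lowest in podocytes of all classes.

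**Figure D1:**
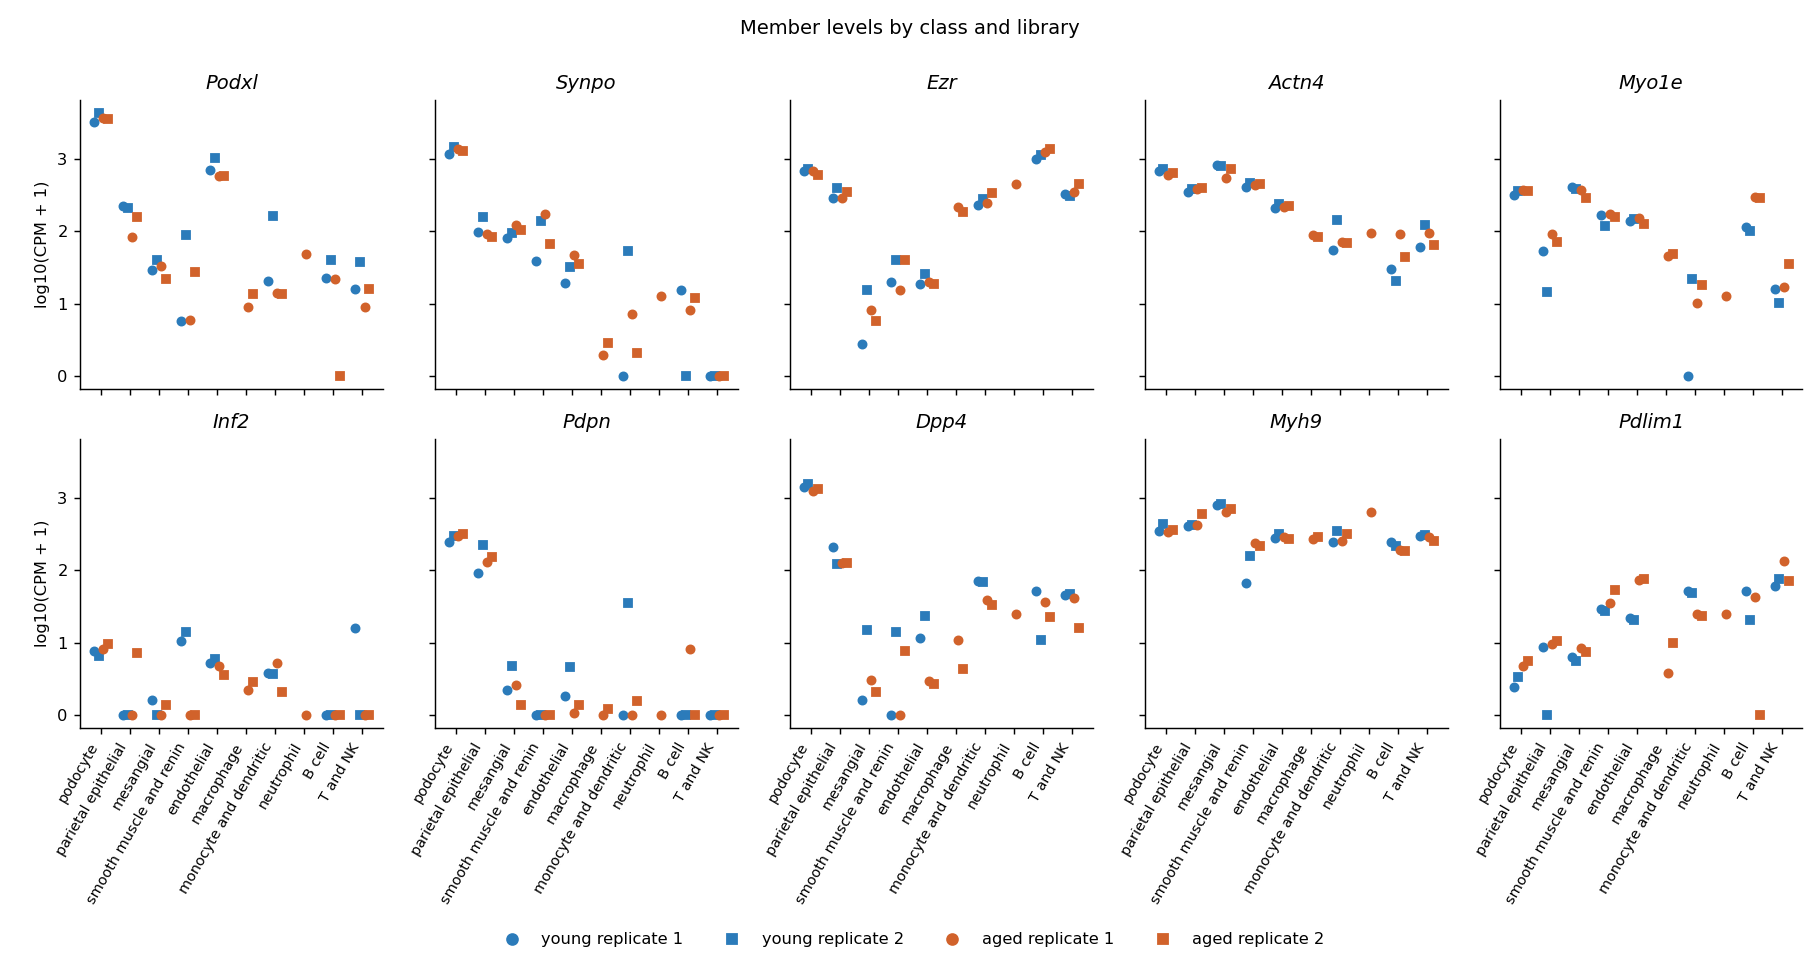
Each panel plots 1 gene, with log10(CPM + 1) on the vertical axis and the 10 cell classes on the horizontal axis; each point is 1 library with at least 20 cells of the class, blue for young and orange for aged, circles for replicate 1 and squares for replicate 2. Podxl, Synpo, Pdpn and Dpp4 stand highest in podocytes, while Myh9 is spread over all classes and Pdlim1 is at its lowest in podocytes.

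Podxl (ENSMUSG00000025608, chr6:31519488-31563981 in GRCm38, minus strand) encodes podocalyxin, the sialomucin that gives the foot processes much of their charge. Its mean was 3747 ± 441 CPM (SD, n = 4 libraries) in podocytes and 740.3 ± 219 CPM in endothelial cells, 19.8% of the podocyte level. No other class passed 4.52% of it. Podocalyxin is known on endothelium as well as on podocytes.

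Pdpn (ENSMUSG00000028583, chr4:143267431-143299564, minus strand) encodes podoplanin, a mucin-like membrane protein that binds the platelet receptor CLEC-2. It averaged 292 ± 33.5 CPM in podocytes and 150 ± 56.4 CPM in parietal epithelial cells, the flat lining of Bowman's capsule. In endothelial and mesangial cells it was at 1.21 and 1.70 CPM. The parietal level of Pdpn was 51.3% of that in podocytes, against 10.6% for Dpp4 and 4.52% for Podxl. Podocyte RNA scaled to the UMIs of Nphs1, the podocyte gene for nephrin, in the parietal cells would give 14.8% to 40.1% of the Pdpn UMIs measured there, 72.5% to 144% of the Dpp4 UMIs and 163% to 327% of the Podxl UMIs.

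Dpp4 (ENSMUSG00000035000, chr2:62330073-62412231, minus strand) encodes dipeptidyl peptidase 4, a surface enzyme that trims peptide hormones and chemokines. It stood at 1392 ± 125 CPM in podocytes, 147 ± 43.5 CPM in parietal epithelial cells, 52.6 ± 20.3 CPM in monocytes and dendritic cells and 36.5 ± 14.7 CPM in T and NK cells. In endothelial and mesangial cells the means were 9.25 ± 9.84 and 4.37 ± 6.29 CPM, so there the spread over libraries was larger than the mean. Dpp4 overlaps the gene Gm13561 on the opposite strand.

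Ezr (ENSMUSG00000052397, chr17:6738041-6782784, minus strand) encodes ezrin, the linker between membrane proteins and actin. B cells had the highest level, 1199 ± 159 CPM, followed by podocytes with 677 ± 47.3 CPM, and the libraries of these classes did not overlap. Parietal epithelial cells had 332 ± 56.1 CPM, and the stromal and endothelial classes were low, with 19.8 ± 3.43 CPM in endothelial cells and 7.05 ± 5.53 CPM in mesangial cells. Ezr overlaps Sytl3 on the opposite strand.

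Among the actin cross-linking genes, Actn4 (ENSMUSG00000054808, chr7:28893248-28962340, minus strand), which encodes alpha-actinin-4, had 725 ± 122 CPM in mesangial cells and 672 ± 54.4 CPM in podocytes, with overlapping ranges. Smooth muscle and renin cells followed with 443 ± 27.0 CPM and parietal epithelial cells with 378 ± 20.9 CPM. The Actn4 gene overlaps Capn12 on the opposite strand and Gm44699 on its own. Synpo (ENSMUSG00000043079, on chromosome 18) encodes synaptopodin, a partner of alpha-actinin in foot processes. It had 1336 ± 118 CPM in podocytes, and parietal epithelial, smooth muscle and mesangial cells lay close together at 108 ± 33.4, 104 ± 62.4 and 99.7 ± 16.8 CPM. Podocyte RNA scaled to Nphs1 as above would give 106% to 179% of the Synpo UMIs measured in parietal epithelial cells. In mesangial cells it would give 0% to 10.0%. The part of podocyte RNA in these levels was not tested. Endothelial cells had 32.6 ± 11.2 CPM, and no UMI of Synpo was found in the T and NK cells of any library.

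Of the motors, Myh9 was found at a similar level in many classes and Myo1e was not. Myh9 (ENSMUSG00000022443, chr15:77760587-77842175, minus strand), the heavy chain of non-muscle myosin IIA, ranged only from 170 ± 77.3 CPM in smooth muscle and renin cells to 748 ± 81.2 CPM in mesangial cells, with 375 ± 47.2 CPM in podocytes. Gm22107 lies within it on the same strand. Myo1e (ENSMUSG00000032220, chr9:70207350-70399766, plus strand), a class I myosin that links membrane to actin, had 368 ± 51.9 CPM in mesangial cells and 354 ± 23.1 CPM in podocytes, with overlapping ranges. Its level in parietal epithelial cells was 57.3 ± 33.0 CPM, and in T and NK cells and in monocytes and dendritic cells it was 18.7 ± 11.1 and 11.8 ± 9.35 CPM. Inf2 (ENSMUSG00000037679, chr12:112588784-112615557, plus strand), a formin that both builds and severs actin filaments, was scarce. It had 6.94 ± 1.28 CPM in podocytes and 3.85 ± 1.00 CPM in endothelial cells, and only 148 UMIs in all podocytes together. In smooth muscle and renin cells it was at 9.48 and 13.2 CPM in young libraries, above every podocyte library, but from 2 and 3 UMIs, and at 0 in both aged ones.

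Pdlim1 (ENSMUSG00000055044, chr19:40221173-40271842, minus strand) encodes a PDZ and LIM domain protein that binds alpha-actinin. Its podocyte level was 3.01 ± 1.4 CPM from 61 UMIs, against 84.8 ± 34.4 CPM in T and NK cells, 46.6 ± 30.6 CPM in endothelial cells and 35.4 ± 11.9 CPM in smooth muscle and renin cells. Mesangial cells had 5.93 ± 1.28 CPM.

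The promoters of Dpp4 and Pdlim1 are shown because these genes had the largest differences between aged and young libraries in the endothelium. The RefSeq windows in GRCm38.p6 run from 250 bases before to 50 bases after the start site, and 8 of the 10 genes had an entry, all but Podxl and Synpo. Dpp4 is at chr2:62412182-62412481 and Pdlim1 at chr19:40271567-40271866, both on the minus strand and written 5′ to 3′, with matches to the motifs searched in capitals.
Dpp4: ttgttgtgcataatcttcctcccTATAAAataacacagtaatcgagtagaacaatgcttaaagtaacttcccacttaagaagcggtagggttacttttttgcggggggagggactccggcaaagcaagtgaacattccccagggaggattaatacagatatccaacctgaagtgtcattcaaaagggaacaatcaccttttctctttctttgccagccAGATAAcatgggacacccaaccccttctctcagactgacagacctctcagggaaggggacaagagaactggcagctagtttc
Pdlim1: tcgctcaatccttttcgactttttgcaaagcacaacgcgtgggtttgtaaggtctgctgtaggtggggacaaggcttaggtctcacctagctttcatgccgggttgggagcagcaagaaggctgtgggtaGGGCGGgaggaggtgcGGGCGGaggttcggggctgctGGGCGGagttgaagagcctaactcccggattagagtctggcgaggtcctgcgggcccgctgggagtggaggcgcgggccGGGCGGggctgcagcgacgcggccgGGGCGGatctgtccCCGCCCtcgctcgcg
Both strands were searched for the TATA box (TATAAA), the GC box (GGGCGG), the CCAAT box, the AP-1 site (TGANTCA), the ETS core (CCGGAA), the E-box (CACGTG) and the GATA site (AGATAA). Matches in these windows did not overlap. The Dpp4 window had 45.3% G and C and held the TATA box at −227 and the GATA site at −32 from the start site. Of all 32851 promoters, 13.6% hold the TATA box and 11.2% the GATA site. The Pdlim1 window had 65.7% G and C and held the GC box 5 times on its own strand and 1 time on the other, as do at least once 35.7% of all promoters. The CCAAT box is in 37.4% of promoters, the AP-1 site in 7.81%, the ETS core in 14.9% and the E-box in 7.15%. The median promoter has 52.7% G and C. These matches describe letters only.

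To ask whether the members differ with age in podocytes themselves, UMIs were summed per library and tested with edgeR's quasi-likelihood test and Benjamini-Hochberg adjustment over all genes. All 10 members were tested, and none was called at an adjusted p under 0.05, where 6.16% of 10895 genes were called. At an unadjusted p under 0.05 there was 1 member (Pdlim1) and 1870 genes, and DESeq2 called 0 members. The libraries of the 2 ages did not overlap for 7 members, 4 higher and 3 lower in aged, a share to be read against 46.3% of all genes. The median log2 fold change (aged over young) was 0.05 for the members and 0.00 for all genes tested.

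For the surface genes, Podxl was at 3281 and 4336 CPM in the young and 3760 and 3610 CPM in the aged podocytes. The aged values lay between the young ones, with a log2 fold change of 0.01 (SE 0.16, 95% interval −0.31 to 0.33, adjusted p = 0.984). Pdpn was at 244 and 300.2 CPM in young and 302 and 322 CPM in aged podocytes. Its log2 fold change was 0.26 (SE 0.13, 95% interval −0.01 to 0.53, adjusted p = 0.317). Without young replicate 2 it was 0.38, with an adjusted p of 0.0305, in a range of 0.0305 to 0.955 over its alternatives. Dpp4 was at 1412 and 1558 CPM in young and 1270 and 1327 CPM in aged podocytes (log2 fold change −0.14, SE 0.14, 95% interval −0.42 to 0.15, adjusted p = 0.711). The surface coat genes therefore differed by less than the test could call, with intervals that leave room for changes of at most 0.53 on the log2 scale either way.

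The linker and cross-linker genes likewise gave no call. Ezr was at 690 and 723 CPM in young and 684 and 611 CPM in aged podocytes. Actn4 was at 683 and 742 CPM in young and 614 and 650 CPM in aged ones. For both, the aged libraries lay just under the young ones, with log2 fold changes of −0.07 (95% interval −0.34 to 0.20) and −0.12 (95% interval −0.39 to 0.16). Synpo was at 1184 and 1465 CPM in young and 1377 and 1318 CPM in aged podocytes, and its aged values fell between the young ones (log2 fold change 0.08, 95% interval −0.21 to 0.37).

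Of the motors, Myh9 was at 349 and 445 CPM in young and 344 and 363 CPM in aged podocytes, with overlapping groups (log2 fold change −0.11, 95% interval −0.38 to 0.17). Myo1e was at 320.5 and 359 CPM in young and 374 and 363 CPM in aged podocytes (log2 fold change 0.17, 95% interval −0.09 to 0.44). For the formin gene Inf2 the 50 and 17 UMIs in young and 39 and 42 UMIs in aged podocytes set the precision, and the 95% interval of its log2 fold change of 0.38 ran from −0.20 to 0.96.

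Pdlim1 had the largest podocyte difference and the fewest molecules. It was at 1.44 and 2.28 CPM (11 and 7 UMIs) in young and 3.80 and 4.51 CPM (21 and 22 UMIs) in aged podocytes, which gave a log2 fold change of 1.31 (SE 0.45, 95% interval 0.39 to 2.23, adjusted p = 0.0838). It passed the threshold only when genes with low counts were kept, with an adjusted p of 0.0476, in a range of 0.0476 to 0.764 over its alternatives. The summed level of the 8 endothelial markers in podocytes reached 0.283% and 0.586% (young) and 0.551% and 0.445% (aged) of their endothelial level. The part of endothelial RNA in this difference was not tested.

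**Figure D2:**
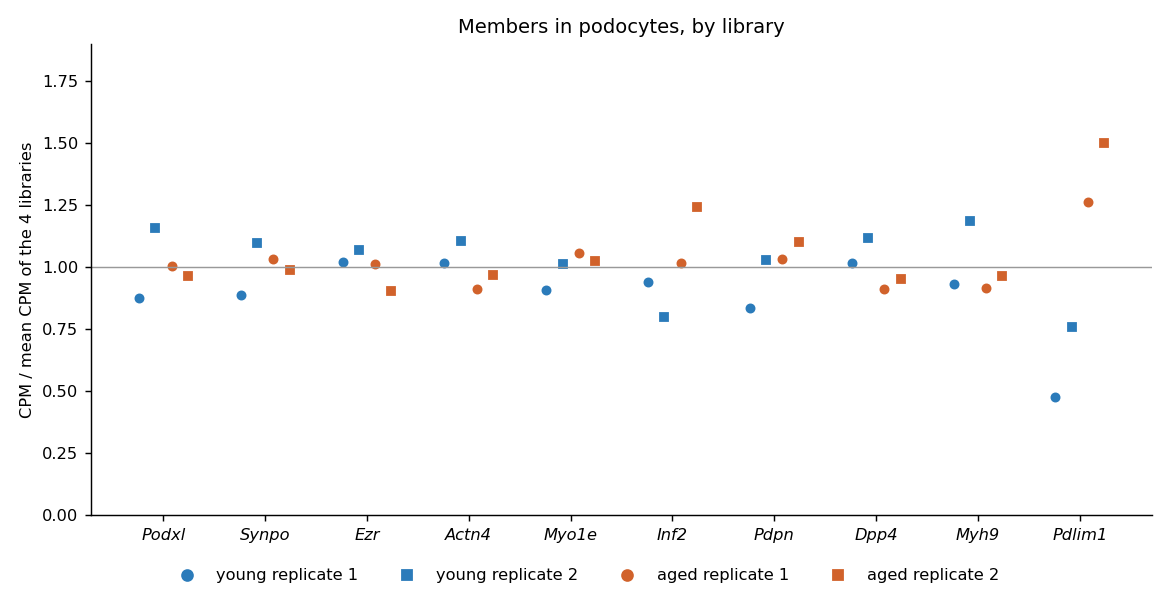
The CPM of each member in the podocytes of each library is plotted relative to its mean over the 4 libraries (vertical axis, from 0); blue points are young, orange points are aged, circles are replicate 1 and squares replicate 2. All members but Inf2 and Pdlim1, which have 148 and 61 UMIs in all, stay close to the line at 1.

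The podocytes formed 2 clusters, numbered 2 and 8, whose shares were similar in all libraries: cluster 2 held 60.1% and 70.4% of young and 70.0% and 68.1% of aged podocytes. Dpp4 was among the 10 genes that most set cluster 8 apart from all other cells, most of which were not podocytes. Nphs1, which encodes nephrin of the slit diaphragm, was there too. No member had been used for clustering. Dpp4 stood at 1460 to 1708 CPM in cluster 8 and at 1226 to 1519 CPM in cluster 2. These ranges over libraries overlapped, but within each library Dpp4 was higher in cluster 8. The difference between the clusters was not tested. With all libraries, no member was called within either cluster by edgeR, where 7.09% of genes were called in cluster 2 and 0.909% in cluster 8. Without young replicate 1, Myh9 was called lower in cluster 8 (log2 fold change −0.52, adjusted p = 0.0322).

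In endothelial cells, pooled over all endothelial clusters, 9 of the 10 members were tested, and 5.64% of all 12864 genes tested were called. Pdlim1 and Synpo rose with age (3.73% of genes were called higher in aged), and Dpp4 fell (1.91% were called lower). The libraries of the 2 ages did not overlap for 5 of the 9 members, against 52.2% of all genes. The median log2 fold change was 0.04 for the members and −0.01 for all genes. Without young replicate 2, the library that stood apart, the log2 fold changes of the 3 called members were 1.9, 1.19 and −2.47 in the same order, and all 3 were called.

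Pdlim1 was at 20.6 and 19.6 CPM in young and 72.0 and 74.2 CPM in aged endothelial cells, from 123, 71, 1094 and 1011 UMIs. The libraries of an age nearly coincided, and the aged level was 3.92-fold the young one (log2 fold change 1.97, SE 0.15, 95% interval 1.65 to 2.30, adjusted p = 1.04e-06). After thinning every cell to 1000 UMIs, 1.75% and 2.07% of young and 6.95% and 6.0% of aged endothelial cells had at least 1 Pdlim1 UMI. The unthinned shares were 4.31%, 4.42%, 15.1% and 19.4%, and thinning left out 28, 178, 122 and 19 cells. In podocytes, which hold little of this RNA, the thinned shares were 0.0574%, 0 of 540 cells (which allows up to 0.556%), 0.308% and 0.464%. Endothelial cells had a median of 2298 and 2550 UMIs in the young and 2316 and 3135 UMIs in the aged libraries, and podocytes of 4191, 5777, 5814 and 7660 UMIs. The 95% Wilson intervals of the endothelial shares, 1.28 to 2.37% and 1.4 to 3.07% in young and 6.31 to 7.64% and 5.29 to 6.80% in aged, did not overlap between ages. Such intervals and limits cover counting error only. Of the classes richer in Pdlim1 than podocytes, T and NK markers summed to at most 0.0419% of their own level in endothelial cells. Smooth muscle and renin markers reached at most 0.103% and B cell markers at most 0.116%. Monocyte and dendritic markers summed to 81.5 and 100.0 CPM in young and 102 and 122 CPM in aged endothelial cells. That was 2.25% and 3.10% of their own level in young and 5.82% and 9.65% in aged libraries. Pdlim1 in that class, at 36.2 ± 15.3 CPM, was below the aged endothelial level. The part of RNA from other classes in the Pdlim1 difference was not tested.

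The endothelial cells fell into 6 clusters whose shares differed between ages. Cluster 0, led by Sele, Selp and Il6, held 14.9% and 12.9% of young and 41.3% and 28.4% of aged endothelial cells, and cluster 4, led by Cyp26b1, held 37.3% and 38.7% of young and 4.18% and 7.89% of aged ones. Pdlim1 was therefore also compared within clusters, a step added after seeing the data. It was called higher in each of the 5 clusters where it could be tested. Cluster 0 went from 24.6 and 24.7 to 93.7 and 100.4 CPM (log2 fold change 2.08, adjusted p = 2.69e-05, with 1.85% of genes called higher there). Cluster 1, led by Gata5, went from 8.55 and 10.3 to 41.6 and 51.5 CPM (log2 fold change 2.42, 1.85% called higher). In cluster 3, led by Esm1, the log2 fold change was 2.21 (1.18% called higher), and in cluster 4 it was 1.50 (1.85% called higher). In cluster 9, led by Tspan8, Pdlim1 went from 51.4 and 30.2 to 83.1 and 86.8 CPM (log2 fold change 1.14, adjusted p = 0.0184, 1.76% called higher). The calls were lost in cluster 3 without young replicate 1 (adjusted p = 0.10, in a range of 9.85e-05 to 0.10) and in cluster 9 without young replicate 1 (adjusted p = 0.0650) or without young replicate 2 (adjusted p = 0.223, in a range of 0.0085 to 0.223). Cluster 12 had 0 and 0 UMIs of Pdlim1 in young and 11 and 12 UMIs in aged libraries and was not tested.

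**Figure D3:**
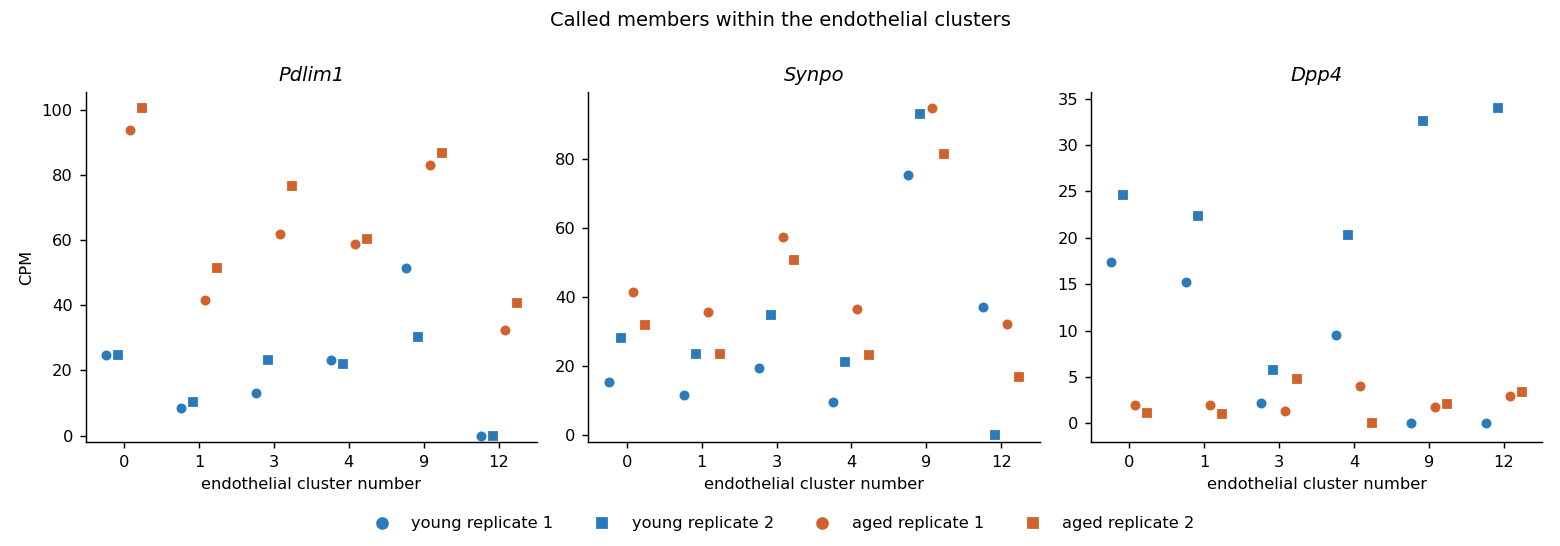
CPM (vertical axis, a separate scale in each panel) of Pdlim1, Synpo and Dpp4 in the 6 endothelial clusters (horizontal axis); each point is 1 library, blue for young and orange for aged, circles for replicate 1 and squares for replicate 2. Aged Pdlim1 points lie above the young ones in every cluster, Synpo is highest in cluster 9 at both ages, and Dpp4 is lower in both aged than in both young libraries in clusters 0, 1 and 4 but not in the other 3.

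Synpo was at 18.4 and 31.7 CPM in young and 45.8 and 34.3 CPM in aged endothelial cells, from 110, 115, 696 and 467 UMIs. The ages did not overlap, but the highest young and the lowest aged library were close (log2 fold change 0.84, SE 0.20, 95% interval 0.42 to 1.27, adjusted p = 0.0168). The call was lost without young replicate 1 (log2 fold change 0.52, adjusted p = 0.278) and without aged replicate 1 (0.62, adjusted p = 0.0754), in a range of 3.92e-05 to 0.278 over all alternatives. After thinning, 1.48% and 2.68% of young and 4.61% and 2.99% of aged endothelial cells had a Synpo UMI, and unthinned these were 4.18%, 7.34%, 10.4% and 10.4%. In B cells, which should lack it, 1 of 97, 0 of 57, 1 of 103 and 0 of 50 thinned cells had one, at medians of 1330, 1641, 1200 and 1727 UMIs. The intervals of the second young library (1.89 to 3.78%) and the second aged library (2.49 to 3.58%) overlapped. With all libraries, no endothelial cluster taken alone gave a call for Synpo. Its log2 fold changes in clusters 0, 1, 3 and 4 were 0.96, 0.91, 1.27 and 1.09 (adjusted p = 0.0934, 0.118, 0.0680 and 0.0981). It was called without aged replicate 2 in clusters 0 (adjusted p = 0.0344, in a range of 0.0344 to 0.53) and 1 (0.00384, in a range of 0.00384 to 0.613), and without young replicate 2 in clusters 3 (0.0392, in a range of 0.0392 to 0.558) and 4 (0.0298, in a range of 0.0298 to 0.673). Its level in cluster 9 was 75.3 and 93.1 CPM in young and 94.6 and 81.5 CPM in aged libraries.

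Dpp4 was at 10.7 and 22.6 CPM in young and 1.97 and 1.69 CPM in aged endothelial cells, from 64, 82, 30 and 23 UMIs. The aged libraries lay far under the young ones, and the fitted young level was 7.93-fold the aged one (log2 fold change −2.99, SE 0.32, 95% interval −3.65 to −2.32, adjusted p = 1.71e-05). It was called lower in endothelial clusters 0, 1 and 4, with log2 fold changes of −3.50, −3.53 and −3.05, where 0.924%, 0.816% and 0.722% of genes were called lower. Without aged replicate 2 the call in cluster 4 was lost (adjusted p = 0.647, in a range of 0.00633 to 0.647). In the other 3 clusters Dpp4 had too few UMIs to be tested, and there the ages overlapped: cluster 3 was at 2.17 and 5.79 CPM in young and 1.35 and 4.82 CPM in aged libraries, and cluster 9 at 0 and 32.6 CPM in young and 1.77 and 2.12 CPM in aged ones.

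RNA of podocytes was present beside this result. Nphs1 was at 1.51 and 8.82 CPM in young and 2.30 and 2.35 CPM in aged endothelial cells, from 9, 32, 35 and 32 UMIs. That was 0.135% and 0.698% of the Nphs1 level in podocytes in young and 0.191% and 0.189% in aged libraries. All 10 podocyte markers were detected in the endothelial cells of each library. Their summed level was higher, 4.16% and 4.54% of that in podocytes in young and 3.88% and 3.74% in aged libraries. How much of this sum is podocyte RNA was not tested. Podocyte RNA scaled to the Nphs1 UMIs would bring 11.4 and 39.4 Dpp4 UMIs to the young and 36.8 and 34.2 to the aged endothelial sums. That was 17.8% and 48.1% of the Dpp4 UMIs measured in the young and 123% and 149% of those in the aged libraries. The scaling thus gave more Dpp4 than was measured in both aged libraries, while in the young ones 8.82 and 11.7 CPM remained beside it. It also gave 874% and 166% of the Pdpn UMIs measured in aged endothelial cells, so it can overshoot. The source of the Dpp4 UMIs in aged endothelial cells was not tested. The few Nphs1 UMIs limit the precision of this scaling.

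The share of endothelial cells with a Dpp4 UMI was also set beside that of a background class. After thinning it was 1.31% and 2.51% in young and 0.266% and 0.212% in aged libraries (unthinned 2.50%, 5.92%, 0.503% and 0.579%). In mesangial cells, where the gene is hardly detected, it was 0 of 288 cells (up to 1.04%), 3.30%, 0.318% and 0.194%, at medians of 4026, 3443, 4462 and 7025 UMIs. The endothelial share of young replicate 2 and those of both aged libraries were within the intervals of this background. That of young replicate 1 was above the limit of 1.04% for its mesangial cells but within their 95% Wilson interval, which reached 1.32%. With only 288 cells this interval is wide, and whether any of these shares is background was not tested. Unthinned, the mesangial shares were 0.342% and 6.0% in young and 0.790% and 1.16% in aged libraries. Nphs1 in mesangial cells was at 0% and 0.653% of its podocyte level in young and 0.490% and 0.0585% in aged libraries. In endothelial cells it was at 0.135%, 0.698%, 0.191% and 0.189%, so this background is not matched for podocyte RNA.

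The same scaling gave 8.68% and 32.2% of the Synpo UMIs measured in young and 5.73% and 7.27% of those in aged endothelial cells. It gave 0.617% to 2.87% of the Podxl UMIs and at most 0.0814% of the Pdlim1 UMIs. With that RNA subtracted, an alternative added after seeing the data, the log2 fold change of Synpo was 1.11 (adjusted p = 0.000965, within the range given above). No Dpp4 UMI was left in either aged library. That follows from the scaling itself, which exceeded the UMIs measured there, as negative remainders were set to 0.

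**Figure D4:**
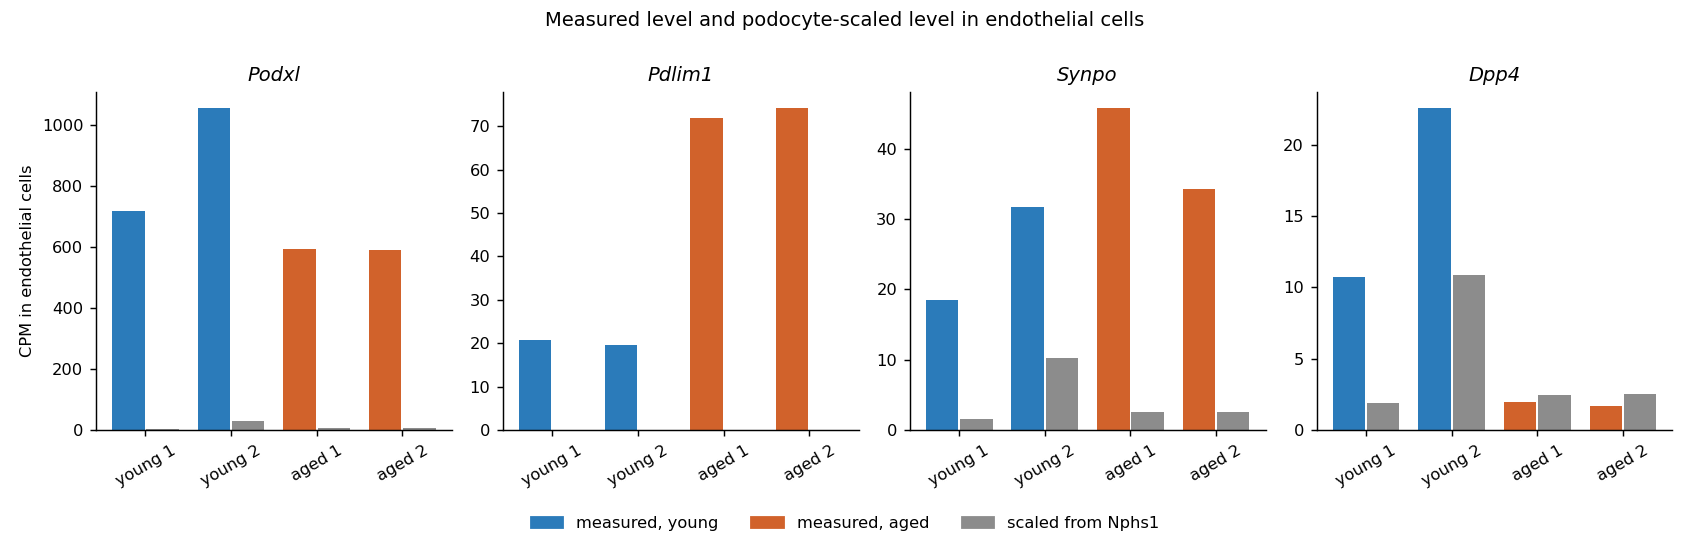
For 4 members, coloured bars give the CPM measured in the endothelial cells of each library (blue young, orange aged), and grey bars the CPM that podocyte RNA scaled to Nphs1 would give; each panel has its own scale from 0. The grey bars are 17.8% and 48.1% of the young Dpp4 bars and exceed both aged ones, and they are barely visible for Podxl and Pdlim1.

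Podxl, the member with the most endothelial UMIs, was at 719.5 and 1056 CPM in young and 594 and 591 CPM in aged endothelial cells. Both aged libraries lay under both young ones, but the young libraries differed from each other by more than the aged ones differed from the nearer of them (log2 fold change −0.45, SE 0.17, 95% interval −0.81 to −0.09, adjusted p = 0.157). Actn4, Myh9, Myo1e and Ezr had log2 fold changes from −0.04 to 0.12, and Inf2 had −0.41 with a 95% interval of −1.08 to 0.27. Pdpn was not tested in the main fit, with 5 and 13 UMIs in young and 1 and 5 UMIs in aged endothelial cells. It was called with a library left out. Podocyte RNA scaled as above would give 1.97, 7.60, 8.74 and 8.29 Pdpn UMIs.

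In mesangial cells, the contractile stromal cells of the tuft, 7 members were tested by edgeR and none was called, where 6.76% of 10653 genes were. At an unadjusted p under 0.05 there was 1 member (Synpo), and DESeq2 called 0. The libraries of the 2 ages did not overlap for 5 members, against 54.5% of all genes, and the median log2 fold change was −0.16 for the members and −0.01 for all genes. Synpo was at 80.3 and 95.4 CPM in young and 121 and 102 CPM in aged mesangial cells (log2 fold change 0.47, 95% interval 0.09 to 0.84, adjusted p = 0.133). Actn4 was at 821 and 803 CPM in young and 553 and 723 CPM in aged ones (log2 fold change −0.24, 95% interval −0.60 to 0.11, adjusted p = 0.437). Without aged replicate 2, Synpo (0.63, adjusted p = 0.00327, in a range of 0.00327 to 0.876) and Actn4 (−0.40, adjusted p = 0.0481, in a range of 0.0481 to 0.892) passed the threshold. Dpp4 had 1 and 15 UMIs in young and 9 and 6 UMIs in aged mesangial cells and was not tested. It passed only in the fit that kept genes with low counts, with an adjusted p of 0.0379. There podocyte RNA scaled to 0, 9, 26 and 4 UMIs of Nphs1 would give 0, 11.1, 27.3 and 4.28 UMIs.

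In parietal epithelial cells 8 members were tested by edgeR and none was called, where 2.1% of 3673 genes were. There were 2 members at an unadjusted p under 0.05 (Podxl and Myo1e), and DESeq2 called 0. The libraries did not overlap for 3 members, against 48.6% of all genes, and the median log2 fold change was −0.12 for the members and 0.02 for all genes. Podxl was at 227 and 212 CPM in young and 82.3 and 156 CPM in aged cells, from 30, 31, 19 and 50 UMIs (log2 fold change −0.81, 95% interval −1.51 to −0.11, adjusted p = 0.202). It passed without aged replicate 2 (−1.41, adjusted p = 0.0129) and with mixed cells kept (−1.42, adjusted p = 0.0119), in a range of 0.0119 to 0.604. The podocyte markers summed to 7.67% and 5.47% of their podocyte level in young and 5.12% and 4.93% in aged parietal epithelial cells. Podocyte RNA scaled to the 22, 21, 20 and 28 UMIs of Nphs1 there would give more Podxl UMIs than were measured in every library, and its part in the difference was not tested. Myo1e was at 53.1 and 13.7 CPM in young and 91.0 and 71.6 CPM in aged cells, from 7, 2, 21 and 23 UMIs (log2 fold change 1.31, 95% interval 0.20 to 2.42, adjusted p = 0.196). Pdpn (log2 fold change −0.15) and Dpp4 (−0.37) had intervals of −0.92 to 0.61 and −1.06 to 0.32. Podocyte RNA scaled in the same way would give 99.4% and 144% of the Dpp4 UMIs measured in young and 72.5% and 73.0% of those in aged parietal epithelial cells.

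**Figure D5:**
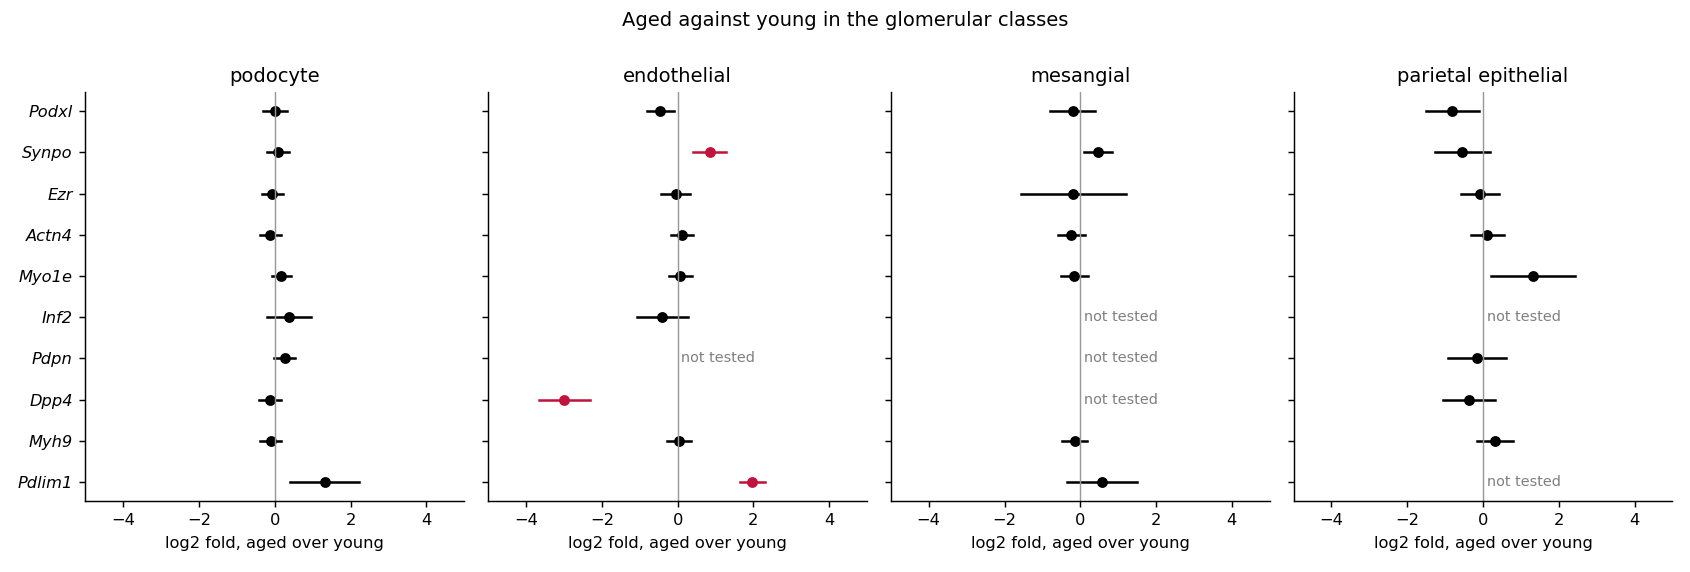
The log2 fold change of aged over young (horizontal axis) of each member in the 4 glomerular classes, with its 95% interval from edgeR; red marks an adjusted p under 0.05 and black the rest, and members with too few UMIs are marked as not tested. Only Synpo, Dpp4 and Pdlim1 in endothelial cells are red, and the podocyte intervals are narrow except for Inf2 and Pdlim1.

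Whether a member differed with age in one class more than in another was tested as the age by class interaction, with the library as a block, for 6 pairs of classes and 10 members. Of these 60 tests 5 were called, all with endothelial cells on one side. Between podocytes and endothelial cells 3.49% of genes were called, and with them Dpp4 (difference of log2 fold changes, podocyte minus endothelial, 2.79, SE 0.31, adjusted p = 1.43e-10), Pdpn (3.17, SE 0.65, adjusted p = 0.000713) and Synpo (−0.78, SE 0.18, adjusted p = 0.00456). Between endothelial and parietal epithelial cells 0.673% were called, with Dpp4 (−2.67, SE 0.44, adjusted p = 4.85e-05) and Pdpn (−2.88, SE 0.71, adjusted p = 0.0232). The Pdpn differences rest on the 5, 13, 1 and 5 endothelial UMIs given above. In endothelial cells alone Pdpn did not pass the expression filter, and it entered this fit through classes where its level is higher. The Pdpn calls are therefore not read as an age difference. Pdlim1, with few UMIs outside endothelium, was not called in any pair, and its podocyte minus endothelial difference was −0.66 (95% interval −1.59 to 0.26). The pairs of podocyte and mesangial cells (4.99% of genes), podocyte and parietal epithelial cells (1.04%), endothelial and mesangial cells (2.84%) and mesangial and parietal epithelial cells (0.83%) gave no call of a member. With mixed cells kept in the classes, none of the 60 was called. The call was lost for Synpo without young replicate 1 (adjusted p = 0.547) or aged replicate 1 (adjusted p = 0.0998), in a range of 0.000255 to 0.666. Pdpn against podocytes lost it without young replicate 2 (adjusted p = 0.417, in a range of 0.000106 to 0.583), and Dpp4 against parietal epithelial cells did so too (adjusted p = 0.056, in a range of 5.7e-09 to 0.813). Pdpn against parietal epithelial cells lost it without young replicate 1, young replicate 2 or aged replicate 1 (adjusted p = 0.056, 0.577 and 0.24), with doublets kept (0.0582) and with at least 1000 UMIs a cell (0.0697), in a range of 0.00655 to 0.79. Dpp4 against podocytes was called in 11 of 12 alternatives, all but the one with mixed cells kept (adjusted p = 0.478).

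The neighbours of these genes in their pathways were followed through lists chosen by known function, 100 genes in 11 lists. In podocytes 80 were tested; 6 rose, where 4.03% of genes did, and 2 fell, where 2.13% did. The actin cross-linkers and tropomyosins had 2 of 15 up: Cald1, for caldesmon (255 to 426 CPM in the group means, log2 fold change 0.80, adjusted p = 0.000342), and Tpm1, for a tropomyosin (685 to 938 CPM, 0.51, adjusted p = 0.0179). The ages did not overlap for either. Of the actin, Arp2/3 and turnover genes 1 of 21 rose, Arpc1b of the Arp2/3 complex (0.54, adjusted p = 0.0117). Of the non-muscle myosin II genes 1 of 10 fell, Myh10, the heavy chain of myosin IIB. It went from a mean of 5.12 to 1.54 CPM (−1.53, adjusted p = 0.0476). Myh10 passed the expression filter only through the young libraries, where it is higher, so a call in this direction was favoured beforehand. None of 5 ERM and NHERF linkers, 8 formins, 2 class I myosins, 3 PDZ-LIM genes, 4 surface peptidases and 2 podoplanin partners was called in podocytes, and neither CD34 family gene was tested. The dissociation-induced genes had 3 up and 1 down of 10, among them Hspa1a (1.06) and Atf3 (0.76) up and Dusp1 (−0.81) down.

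In endothelial cells 86 list genes were tested; 1 rose, where 3.73% of genes did, and 3 fell, where 1.91% did. The ERM linker Rdx, for radixin, fell from a mean of 937 to 571 CPM (log2 fold change −0.59, adjusted p = 0.0387), 1 of 5 in its list. Cnn2, for calponin-2, fell by 0.72 on the log2 scale (1 of 16 cross-linkers and tropomyosins). Of 5 surface peptidases, Enpep, for glutamyl aminopeptidase, fell from 7.21 and 20.4 CPM in young to 4.15 and 4.62 CPM in aged libraries (−1.44, adjusted p = 0.0128). Enpep was highest in young replicate 2, as was Nphs1, and the part of podocyte RNA in it was not tested. The only rise was in a dissociation-induced gene, Dusp1 (1.14), 1 of 10. No gene was called among 10 tested non-muscle myosin II genes, 8 formins, 2 class I myosins, 5 PDZ-LIM genes, 21 actin turnover genes, 3 podoplanin partners and 1 CD34 family gene.

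In mesangial cells 83 list genes were tested; 8 rose, where 4.31% of genes did, and 4 fell, where 2.45% did. Of 16 cross-linkers and tropomyosins 3 rose, led by Palld, for palladin (29.9 and 23.9 CPM in young, 102 and 102 CPM in aged libraries, log2 fold change 2.01, adjusted p = 6.65e-05), and Zyx, for zyxin (0.73). The PDZ-LIM gene Pdlim5 rose by 0.80, 1 of 5, and of 21 actin turnover genes 3 rose, among them Tmsb10 (0.69) and Arpc3 (0.93). The peptidase gene Ace, for angiotensin-converting enzyme, was called higher, 1 of 4. It was at 0.586 and 0 CPM in young and 5.46 and 3.81 CPM in aged libraries. Ace passed the expression filter only through the aged libraries, where it is higher, so a call in this direction was favoured beforehand. The formin gene Daam2 fell (−0.75, 1 of 7), as did 3 of 10 dissociation-induced genes, among them Egr1 (−1.31) and Atf3 (−0.87). In parietal epithelial cells 73 were tested; 2 rose, where 1.2% of genes did, Tagln2 (1.17) and Actg1 (0.94), which encodes gamma-actin. There 3 fell, where 0.898% did, all 3 of them dissociation-induced genes, among them Egr1 (−1.64) and Jun (−1.31). At least 1 dissociation-induced gene was called in each of the 4 classes, in no common direction, and their part in the other differences was not tested.

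The genes most like the 3 called members over the 16 sums of 4 classes in 4 libraries were found by Pearson r of log2(CPM + 1) among 3536 genes with a mean of at least 50 CPM. These values describe how classes differ, since sums of a class share cells of 1 type and sums of a library share its depth. For Pdlim1 they were the endothelial genes Mmrn2 (r = 0.92) and Adgrl4 (0.91), with Irf8 (0.91). For Dpp4 they were the podocyte genes Enpep (0.99), Tcf21 (0.99) and Nphs1 (0.98). For Synpo they were Galnt10 (0.98), Sowahc (0.97) and Nap1l1 (0.97).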

How the data were processed

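For each library the gene list and the matrix of UMI counts per gene and cell barcode were used. The deposited matrices hold raw counts as the authors made them, not normalized. Reads were aligned to GRCm38 with Cell Ranger, version 3.1.0 per the labels' protocols and 6.0.1 per the file headers and the submitters' processing notes, which also name Partek. Counts on 3' ends have no length scaling.

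Barcodes with at least 500 genes and at most 20% mitochondrial UMIs were kept. The automatic doublet threshold marked 0.449%, so the highest scores were removed at 0.8% per 1000 barcodes (1876 barcodes). Cells were clustered with scanpy 1.11.5 and leidenalg 0.10.2 (2000 variable genes without the members, 30 components, resolution 1, no integration of libraries). A class needed a marker level of 0.35 of its best cluster with 3 detected markers, and another class at 0.25 made a cell or cluster mixed; these thresholds were set after seeing the data. UMIs were summed per class and library (at least 20 cells) and tested with edgeR 4.0.16 in R 4.3.3 (TMM, default expression filter, threshold 0.05), and with DESeq2 1.42.0 as an alternative. A standard error (SE) is the absolute value of a log2 fold change over the root of its F statistic. The tests were checked on simulated counts. Gene positions are from GENCODE vM21.

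The members and lists were chosen with earlier results of these data known. All members are named, and from each list and class up to 2 called genes in each direction with the smallest p; 1 list and 1 gene of another list are not reported here. The alternatives were another normalization, no expression filter, each library left out, the replicate number as a block, doublets kept, stricter UMI and mitochondrial limits, other resolutions, members among the clustering genes and mixed cells kept; subtraction of podocyte sums scaled to Nphs1 UMIs and fits within clusters were added later. Same-numbered young and aged libraries deviated with correlations of 0.05, 0.16, 0.14 and 0.00 in the 4 classes.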

Additional observations from a re-analysis of the deposited data

Results flagged for a closer look

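In 5 cases the change with age of a member differed between 2 cell classes by a test of the difference itself. The difference of log2 fold changes, podocyte minus endothelial, was 3.17 for Pdpn, 2.79 for Dpp4 and −0.78 for Synpo. Endothelial minus parietal epithelial, it was −2.88 for Pdpn and −2.67 for Dpp4. Of all genes 3.49% and 0.673% were called in these pairs of classes. None of the 5 was called with mixed cells kept in the classes. In each the podocyte or parietal epithelial change alone did not pass its own test. For Pdpn the endothelial change was not tested alone in the main fit, with 5, 13, 1 and 5 UMIs. Pdpn entered the test of the difference through classes where its level is higher, so its calls are not read as an age difference.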

How the results depend on the processing

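Of the alternatives for single members, 553 kept their direction and their side of the threshold, 20 lost a call, 6 gained one and 28 changed sign, all of the last without a call at either setting. Fits within clusters enter these counts only for results called with all libraries, so calls gained there are not among the 6. These were Synpo in 4 endothelial clusters and Myh9 in podocyte cluster 8, given above. Podxl in endothelial cluster 0 was another, without young replicate 1 (log2 fold change −0.70). Calls of members that the main fit of a class did not test are not among the 6 either. These were Dpp4 in mesangial cells and, with a library left out, Pdpn in endothelial cells. With 2 libraries an age, an exact permutation of the libraries could not go below p = 0.33, so every call rests on the spread pooled over genes. Genes called in podocytes numbered 671, with DESeq2 272 and with mixed cells kept 72, and leaving out 1 library gave 298 to 1199. Members called there were 0, without a low-count filter 1, and 0 to 1 with a library left out. In endothelial cells 726 genes and 3 members were called, and 289 to 776 genes and 2 to 4 members with a library left out. In mesangial cells 720 genes and 0 members were called, with DESeq2 381 genes, without the filter 1253 genes and 1 member, and with a library left out 76 to 1751 genes and 0 to 2 members. In parietal epithelial cells 77 genes and 0 members were called, with DESeq2 34 genes, without the filter 233 genes, with mixed cells kept 197 genes and 1 member, and with a library left out 47 to 162 genes and 0 to 1 members. Members whose change with age differed between classes were 5 of 60, with mixed cells kept 0, and 2 to 5 with a library left out.

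With the replicate number as a block, mesangial cells had 1376 genes called and parietal epithelial cells 41, while Synpo (0.85, adjusted p = 0.0379) and Dpp4 (−2.96, adjusted p = 0.000187) in endothelial cells stayed called. The labels name no shared animal or day and there are only 2 pairs, so the numbers were not taken as pairing the libraries.

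The sign changes were as follows. With mixed cells kept, log2 fold changes were 0.00833 for Ezr and 0.0386 for Dpp4 in podocytes, and 0.049 for Actn4, 0.10 for Myo1e and 0.0562 for Myh9 in mesangial cells. With podocyte RNA subtracted they were 0.0571 for Ezr in endothelial and 0.0449 for Ezr in parietal epithelial cells. With at least 1000 UMIs a cell they were 0.65 for Podxl and 0.22 for Ezr in mesangial cells, and without the filter 0.054 for Ezr in parietal epithelial cells. With 1 library left out, podocytes gave −0.15 to 0.19 for Podxl, −0.0321 to 0.21 for Synpo and −0.24 to 0.0376 for Myh9. Endothelial cells gave −0.25 to 0.16 for Ezr, −0.0842 to 0.21 for Myo1e and −0.00425 to 0.0901 for Myh9. Mesangial cells gave −0.54 to 0.12 for Podxl, −1.20 to 1.82 for Ezr and −0.37 to 0.0343 for Myo1e. Parietal epithelial cells gave −0.28 to 0.17 for Ezr, −0.61 to 0.66 for Pdpn, −0.73 to 0.0926 for Dpp4 and −0.0012 to 0.56 for Myh9. With at most 10% mitochondrial UMIs no parietal epithelial class was found, so that class had no value there.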

Other observations

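The mixed clusters, which entered no comparison, also held member RNA. The mixed cluster nearest to podocytes had 1901 of its 1950 cells in young replicate 2, with a median of 1017 UMIs a cell. Pdpn was the gene that most set it apart from all other cells. In these 1901 cells Pdpn was at 440.5 CPM, above the 244 to 322 CPM of named podocytes, whereas Podxl (2547 CPM), Synpo (878 CPM) and Dpp4 (702 CPM) were below every library of named podocytes. Nphs1 was at 734 CPM there. The mixed cluster nearest to mesangial cells, with 1720 of 1763 cells in the same library, held Podxl at 1102 CPM and Dpp4 at 300 CPM, against 39.5 and 13.8 CPM in the named mesangial cells of that library. A mixed cluster led by globin genes (307 of 338 cells in that library) held Podxl at 1365 CPM.

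Among the immune classes, which were not tested for age, Ezr in B cells was 1007 CPM in the lowest and 1387 CPM in the highest library. Pdlim1 in T and NK cells ran from 60.0 to 136 CPM, from 43 UMIs in all.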
